A study of Mus musculus with 7 samples.

Results

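Binding of HNF4a at the genes of blood coagulation and fibrinolysis was examined in mouse liver by chromatin immunoprecipitation and sequencing (ChIP-seq). Members were 37 genes of clotting, its inhibitors, clot lysis and a few related proteins that the liver secretes. Every region of the table that was assigned to one of them was taken, at any distance and with any annotation. This gave 118 of 39704 regions, at 32 of the 37 genes, where the whole table names 13644 genes. No region of the table used was assigned to F8, F13a1, Tfpi, Plat or Plau. The compared livers came from 3 mice whose AMP-activated protein kinase, the energy sensor AMPK, is constitutively active (AMPK-CA), and from 3 wild-type mice (WT). All had eaten a high-fat diet with doxycycline over 14 days, so the WT mice received doxycycline too. The labels sort the 6 libraries into 3 batches, with both genotypes in each. The labels name neither the mouse ages nor the promoter or cell type that drives the active kinase.

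HNF4a is a nuclear receptor of hepatocytes that binds DNA as a homodimer and maintains much of the liver's secretory programme, clotting factors included. Hepatocytes make most of the proteins of clotting. In the cascade, tissue factor or the contact system starts a chain of serine proteases that ends in thrombin, which turns fibrinogen into fibrin. Antithrombin and protein C restrain the chain, and plasmin, cut from plasminogen, dissolves the clot. Several of the proteases need vitamin K for the modification that lets them bind membranes.

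The promoters shown here are those whose letters hold a core HNF4 motif, with that of F2, where the strongest of the regions annotated as promoter lies, as one that holds none. The motif searched was CAAAGNNCA, on both strands, in RefSeq windows from 250 bases before to 50 after each start site, in build GRCm38.p6. Windows were found for 30 of the 37 genes, 34 windows in all. None was found for A2m, Kng1, Plat, Plau, Plg, Proc or Serping1, so their promoters were not searched. The motif stood in 6 of these 34 windows (17.6%), and in 6.36% of all 32851 windows. Among windows that overlap a bound region, it stood in 6 of 25 member windows (24.0%) and in 6.15% of all 8606. Each sequence below runs 5′ to 3′ on the gene's strand and ends at the start-site base, counted as 0, with the motif in capitals. F7 (chr8:13025884-13026034, plus strand) has it on the opposite strand from -34. F9 (chrX:59999314-59999464, plus strand) has it on its own strand from -8 and on the opposite strand from -56. Serpinc1 (chr1:160978433-160978583, plus strand) has it from -8. Fga (chr3:83026003-83026153, plus strand) has it on the opposite strand from -78, and Kng2 (chr16:23029101-23029251, minus strand) from -93. F2 lies at chr2:91636457-91636607 on the minus strand. The motif of Serpind1 began after the start-site base, inside the transcript, and is not shown.
F7: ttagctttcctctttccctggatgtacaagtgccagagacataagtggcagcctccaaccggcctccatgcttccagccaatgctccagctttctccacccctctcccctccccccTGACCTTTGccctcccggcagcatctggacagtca
F9: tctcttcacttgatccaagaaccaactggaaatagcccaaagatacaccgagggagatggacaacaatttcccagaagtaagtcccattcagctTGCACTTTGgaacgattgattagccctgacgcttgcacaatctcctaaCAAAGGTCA
Serpinc1: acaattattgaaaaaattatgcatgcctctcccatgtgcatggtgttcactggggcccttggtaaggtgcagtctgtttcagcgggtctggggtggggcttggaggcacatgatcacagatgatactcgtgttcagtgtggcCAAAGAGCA
Fga: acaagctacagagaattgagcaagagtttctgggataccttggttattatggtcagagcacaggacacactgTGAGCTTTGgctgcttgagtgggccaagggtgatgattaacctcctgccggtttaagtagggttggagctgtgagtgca
Kng2: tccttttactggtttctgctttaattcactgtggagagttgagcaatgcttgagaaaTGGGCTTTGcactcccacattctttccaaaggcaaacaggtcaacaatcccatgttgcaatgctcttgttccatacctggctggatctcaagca
F2: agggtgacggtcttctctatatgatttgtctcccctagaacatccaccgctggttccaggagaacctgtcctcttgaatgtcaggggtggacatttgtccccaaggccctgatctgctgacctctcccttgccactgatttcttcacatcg
All 5 motif-bearing promoters shown overlapped a bound region, and their levels ranged widely, as given per gene in what follows. A match describes the letters and is not by itself a binding site. A window without a match says only that these letters are not in it.

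Values are the authors' normalized reads per region, which are not divided by length, and levels of different regions are therefore also given per kb. Recovered reads in regions numbered 1207609, 1037428 and 692813 in the AMPK-CA libraries of batches 1, 2 and 3, and 1622087, 1360605 and 536027 in the WT libraries. WT replicate 1 stood apart, with 19.4% of its reads at promoters against 11.7% to 14.2% in the other 5 libraries. The pooled input was not analysed here, so binding and local DNA recovery cannot be told apart. In bulk liver, fewer binding cells and less binding per cell cannot be told apart either. All 6 hepatocyte marker genes checked had bound regions, as had 5 of 6 endothelial, 1 of 6 Kupffer cell, 2 of 6 stellate, 5 of 6 cholangiocyte and 2 of 4 platelet-lineage markers. These regions are not expression, and the part of cell mixture in any value was not tested.

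HNF4a ChIP signal at the coagulation genes had a higher median than the table, above all near their start sites. The median level of the 118 regions was 22.6 normalized reads, beside 17.4 over all regions, and 70 of them (59.3%) lay above the median of the table. Of these regions, 26 (22.03%) lay among the strongest 10% of the table by level and 22 (18.6%) did so per kb. Promoter-annotated regions numbered 22, at 21 genes, with a median of 37.2 normalized reads (50.1 per kb). All 5235 promoter regions of the table had a median of 18.9 (28.8 per kb). The other 96 regions, called distal here, comprised 51 in introns, 31 between genes, 9 in exons and 5 at gene ends. Their median was 20.2 normalized reads (37.5 per kb), close to the 17.2 (34.3 per kb) of all 34469 distal regions. The member genes thus stood above the table mainly at promoters. A median above that of the table was not particular to them. Regions of hepatocyte, endothelial, stellate, cholangiocyte and platelet-lineage markers had medians of 19.2, 22.2, 19.3, 23.8 and 18.4 normalized reads. The only Kupffer cell marker region had 31.3.

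The division into promoter and distal is the table's annotation. Of the member regions annotated as distal, 10 lay within 1000 bp of a start site, in the first intron or exon of genes such as Proz, F10 and Hrg. Their median was 42.9 normalized reads. With these, 30 of the 32 genes had a region at the promoter or within 1000 bp, the exceptions being A2m and Thpo. Genes of the list carried a median of 3.5 regions each, against 2 for all genes with a region. F11 had 9 regions, Ahsg 8 and Plg 7. The strongest region of 22 genes was annotated as distal and that of 10 genes as promoter. Annotation and distance differ here too. The distal-annotated strongest regions of Proz, F10, Hrg, Fetub, Pros1 and Vkorc1 lay 121 to 925 bp from the start site. The promoter-annotated one of Proc lay at -1424 bp. Over the 32 strongest regions the median was 57.0 normalized reads (60.9 per kb), beside 25.9 (37.7 per kb) over all genes. The strongest region of a member was picked from more regions, and the median lengths were 900.5 bp for members and 685 bp for all genes. How much of the gap this makes was not tested. Among all genes' strongest regions, 11 of the 32 (34.4%) lay in the top 10% by level. The strongest regions of the 6 hepatocyte markers had a higher median than the members, 74.6 normalized reads (67.7 per kb). Those of the other marker lists had lower medians by level, from 14.9 for stellate to 36.9 for platelet-lineage markers.

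**Figure D1:**
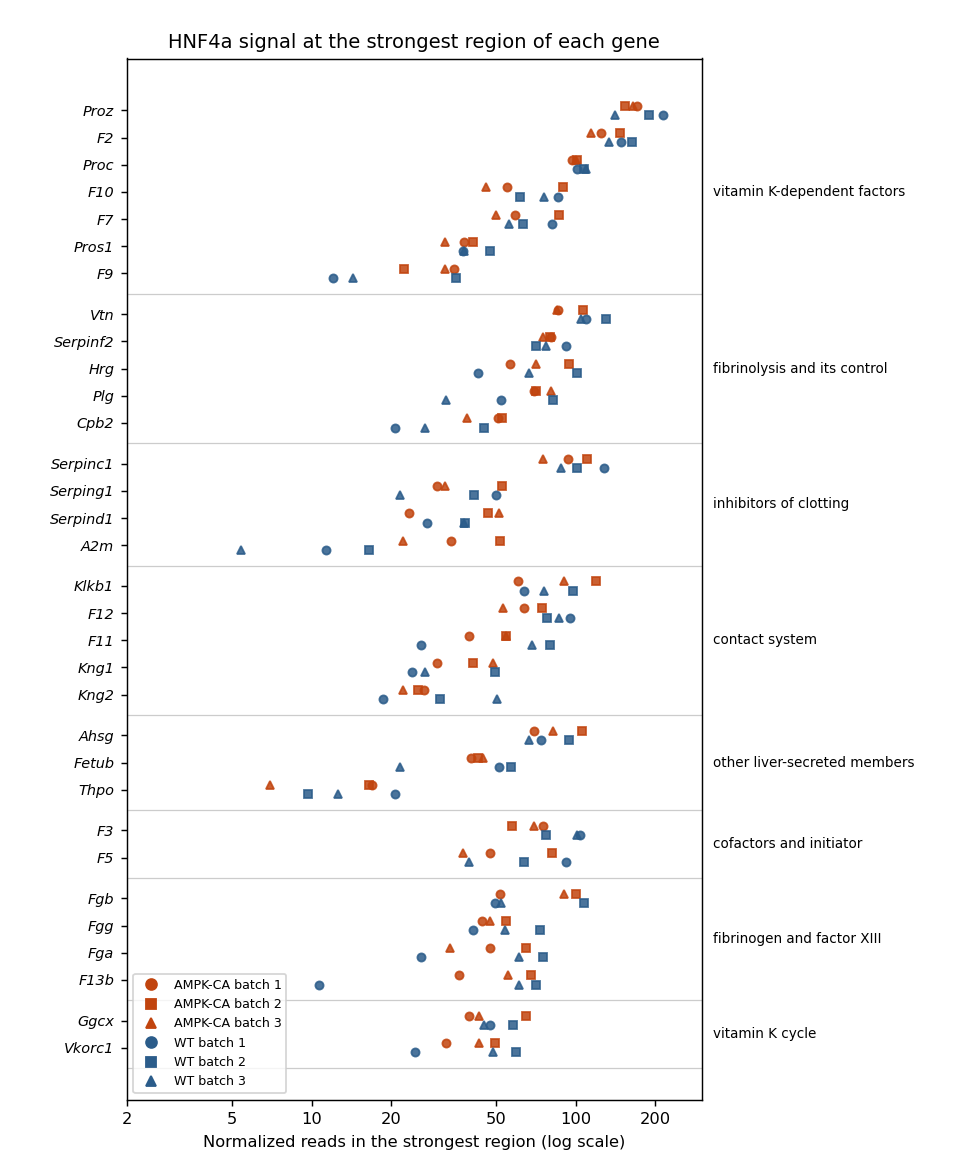
Normalized HNF4a reads per library (log axis) at the strongest region of each of 32 genes, grouped by role, with AMPK-CA above WT and a marker shape per batch. Levels run from a mean of 171.5 at Proz to 13.9 at Thpo, and the genotypes do not overlap at A2m (higher in AMPK-CA, as at 3.61% of all genes' strongest regions) or at F3 and F12 (lower, as at 3.7%).

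The comparison of genotypes asks whether HNF4a binding differs in livers with active AMPK. No member region differed at an adjusted p under 0.05 in the limma fit over all regions, where the share called was 0% of 39704 regions. In the limma fit with a batch block, 23 regions of the table (0.0579%) were called and again no member. At an unadjusted p under 0.05, limma gave 1 member region without the block (background 2.46%) and 5 of 118 with it (background 7.27%). Count tests on the recovered reads also called no member. At an unadjusted p under 0.05, edgeR gave 1 member region without the block (background 2.09%) and 3 with it (background 6.54%). DESeq2 gave 1 without the block (background 1.51%) and 1 with it (background 1.95%). A p above the threshold does not show that the genotypes bind alike, and the standard error of a single strong region such as F2 was 0.23 on the log2 scale.

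Directions were mixed among the members. Within batch, 15 of the 118 regions were higher in AMPK-CA in all 3 batches (background 13.5%) and 17 were lower (background 14.6%). The genotypes did not overlap at 13 regions, 6 of them higher in AMPK-CA (background 4.64%) and 7 lower (background 3.27%). These shares lie near those of the whole table, except that of the non-overlapping lower regions, which was above its background. That excess was not tested. By annotation, 5 of the 9 exon regions were lower in AMPK-CA in all 3 batches, as were 791 of 3511 exon regions of the table. None of the 5 had an unadjusted p under 0.05. WT replicate 1 was the highest of the 6 libraries at 6 of the 9 and at 2484 of the 3511. In batches 1, 2 and 3 the median log2 differences were -0.42, -0.39 and -0.31 for the 9. Over all exon regions they were -0.57, -0.02 and -0.02.

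The vitamin K-dependent factors included the regions with the highest levels of the list, at Proz and F2. Proz encodes protein Z, a cofactor in the inhibition of factor Xa. Its region in intron 1 (chr8:13060290-13061949, mm10) had 169.8, 153.3 and 163.9 normalized reads in the AMPK-CA livers of batches 1, 2 and 3, and 212.8, 188.7 and 140.2 in the WT livers. The genotypes overlapped, with WT of batch 3 lowest of all 6. A further region assigned to Proz lies at the end of F10 (chr8:13057012-13058249) and had 99.8, 115.5 and 94.5 normalized reads in AMPK-CA and 110.1, 143.0 and 79.1 in WT. There too WT of batch 3 was lowest, while the highest was WT of batch 2 rather than of batch 1.

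F2 encodes prothrombin, the precursor of thrombin, and had the strongest member promoter (chr2:91635536-91637406, mm10). It held 124.7, 147.5 and 113.9 normalized reads in the AMPK-CA livers and 148.1, 163.2 and 133.0 in the WT livers. AMPK-CA was lower in each batch, by log2 differences of -0.24, -0.14 and -0.22, while the groups overlapped. The fitted log2 difference was -0.20 ± 0.23 (SE, n = 3 libraries per group), and limma gave an unadjusted p of 0.384. Proc, the gene of the anticoagulant protein C, had its strongest region at -1424 bp (chr18:32139144-32140114), annotated as promoter. The values there were 96.6, 100.9 and 100.01 normalized reads in AMPK-CA and 100.7, 107.1 and 109.6 in WT. AMPK-CA was lower within each batch, but the groups overlapped, with a log2 difference of -0.09 ± 0.24 (SE).

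F7 encodes the protease that tissue factor activates, and its promoter (chr8:13025314-13026239) carries the motif printed above. It had 58.8, 86.3 and 50.01 normalized reads in the AMPK-CA livers and 81.4, 62.9 and 55.7 in the WT livers. The order of genotypes turned between batches 1 and 2, and the log2 difference was -0.05 ± 0.30 (SE). F9, whose protein activates factor X, holds the motif at 2 places in its promoter. The F9 promoter region, of 461 bp, averaged 25.1 normalized reads (54.4 per kb). That of F7, of 926 bp, averaged 65.9 (71.1 per kb). By library, the F9 promoter (chrX:59999131-59999591) had 34.6, 22.3 and 31.9 normalized reads in AMPK-CA and 12.01, 35.2 and 14.4 in WT. WT of batches 1 and 3 were the lowest and WT of batch 2 the highest, so the groups overlapped despite a log2 difference of 0.61 ± 0.44 (SE). That difference was 0.34 without WT replicate 1 and 1.05 without WT replicate 2. F10, the gene of factor X, averaged 63.3 ± 22.9 normalized reads in AMPK-CA and 74.1 ± 12.1 in WT (SD, n = 3 each) at its first exon. Pros1, the gene of the protein C cofactor protein S, averaged 36.8 ± 4.48 and 40.8 ± 5.56 in AMPK-CA and WT at its first intron. Over the 7 genes, the strongest region was lower in AMPK-CA at 6 (55.3% over all genes), and no region of the 19 had an unadjusted p under 0.05 in either limma fit.

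Ggcx and Vkorc1 encode the carboxylase and the reductase of the vitamin K cycle. The strongest Ggcx region, in intron 2 (chr6:72415311-72416435), had 39.4, 65.0 and 43.1 normalized reads in the AMPK-CA livers and 47.4, 57.7 and 44.9 in the WT livers. The AMPK-CA values enclosed the WT values, and the log2 difference was -0.05 ± 0.32 (SE). Vkorc1 had 1 region, in intron 1, which averaged 41.6 ± 8.74 normalized reads in AMPK-CA and 44.1 ± 17.7 in WT (SD, n = 3 each).

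The fibrinogen genes Fgg, Fga and Fgb, which encode the 3 chains of fibrinogen, lie side by side on chromosome 3 and carried 15 regions. The strongest of these was not at a promoter but between Fga and Fgb (chr3:83039562-83040354, mm10), 9832 bp from the Fgb start site on its 3′ side. It had 51.5, 99.9 and 90.3 normalized reads in the AMPK-CA livers and 49.4, 107.1 and 52.1 in the WT livers. Batch 1 was low in both genotypes, WT of batch 2 was highest, and the log2 difference was 0.24 ± 0.33 (SE). It was 0.050 without WT replicate 1 and 0.60 without WT replicate 2. Per kb its mean was 94.6 normalized reads, while the Fga, Fgg and Fgb promoters had 48.5, 33.5 and 18.6. The Fgb promoter was the weakest of the 22 member promoter regions by mean level, at 11.8 normalized reads.

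At Fga the strongest region by level lay at -5363 bp (chr3:83020178-83021401) and had 47.5, 65.0 and 33.3 normalized reads in AMPK-CA and 26.0, 74.9 and 61.1 in WT. WT of batch 1 was lowest and WT of batch 2 highest, and the log2 difference was -0.07 ± 0.38 (SE). The Fga promoter, which holds the motif printed above, averaged 44.6 normalized reads over the 6 libraries. Per kb it was the higher, with 48.5 against 41.9 at -5363 bp. By level, Fgg was bound most at -4401 bp (chr3:83002977-83004013), with 44.3, 54.3 and 47.2 normalized reads in AMPK-CA and 40.7, 73.4 and 53.9 in WT. The AMPK-CA values again lay inside the range of the WT values. Per kb, the Fgg intron region at 1920 bp was slightly higher, with a mean of 53.0 against 50.4 at -4401 bp. F13b, the gene of the carrier subunit of factor XIII, had a single region, at its promoter. The AMPK-CA values there were 36.2, 67.9 and 55.6 normalized reads, and WT had 10.7, 70.4 and 61.1. WT replicate 1 was far below the other 5 libraries at this promoter.

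**Figure D2:**
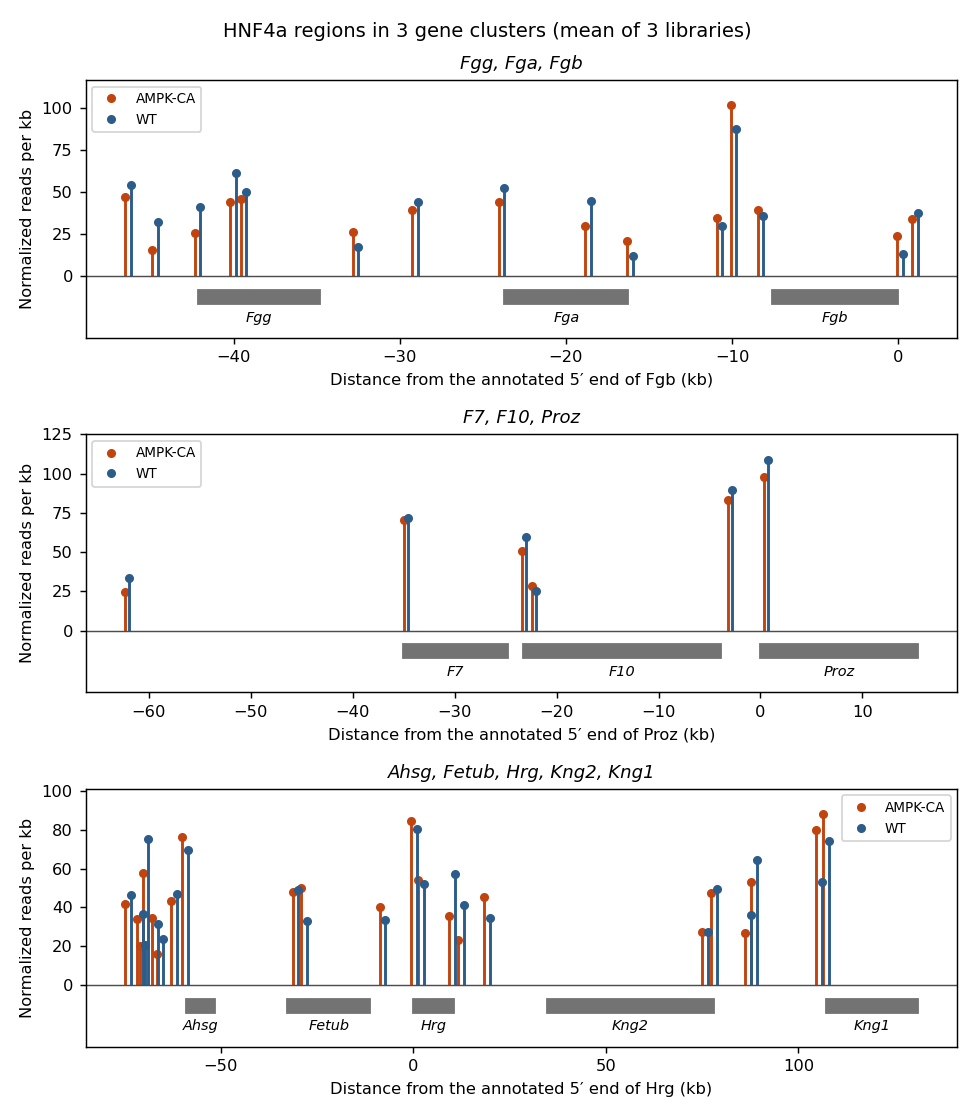
Mean normalized HNF4a reads per kb (3 libraries per genotype) at the regions of 3 gene clusters, against distance from the annotated 5′ end of 1 gene of each cluster, with grey bars for gene bodies and AMPK-CA drawn left of WT. The tallest lines stand between Fga and Fgb (94.6 per kb over both genotypes), at the start of Proz (103.3) and at the starts of Hrg (82.4) and Kng1 (81.0).

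Of the initiator and cofactors, F3 encodes tissue factor and F5 the cofactor of factor Xa. The F3 promoter (chr3:121722735-121723953) had 74.8, 57.2 and 69.5 normalized reads in the AMPK-CA livers and 104.1, 77.1 and 100.7 in the WT livers. AMPK-CA was lower in each batch without overlap between the groups, by a log2 difference of -0.47 ± 0.27 (SE). Limma gave unadjusted p-values of 0.0984 without and 0.0542 with the batch block. An intergenic F3 region at -16310 bp went the other way, with a log2 difference of 0.61. F5 averaged 55.5 ± 23.1 normalized reads in AMPK-CA and 65.1 ± 26.3 in WT (SD, n = 3 each) at its promoter.

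The contact system starts clotting on charged surfaces. Klkb1, the gene of plasma prekallikrein, had its strongest region in intron 6 (chr8:45280784-45282634), with 60.4, 119.3 and 90.3 normalized reads in AMPK-CA and 63.4, 97.3 and 75.5 in WT. The groups overlapped, and batch 1 was lowest in both genotypes. By level, F12, the gene of factor XII, was bound most at its promoter. The values there were 63.6, 74.7 and 52.8 normalized reads in AMPK-CA and 94.7, 77.9 and 86.3 in WT. Like the F3 promoter, it was lower in AMPK-CA without overlap, by a log2 difference of -0.44 ± 0.28 (SE, limma unadjusted p of 0.128). Per kb, the F12 promoter averaged 47.6 and the intergenic F12 region at -2646 bp averaged 52.5. Kng1 encodes the kininogen from which kallikrein cuts bradykinin. Its promoter (chr16:23057995-23058446) had 29.8, 40.7 and 48.6 normalized reads in AMPK-CA and 24.0, 49.4 and 27.0 in WT. These groups overlapped, with WT of batch 2 highest. Kng2, a close copy of Kng1, held the motif in its promoter, while the Kng1 promoter was not searched for it. The mean over all libraries was 22.7 normalized reads (48.5 per kb) at the Kng2 promoter and 36.6 (81.0 per kb) at that of Kng1. The sources used here do not say how reads that match both copies were placed. F11, the gene of factor XI, had its strongest region at 22462 bp, with means of 49.3 ± 8.55 normalized reads in AMPK-CA and 58.1 ± 28.4 in WT (SD, n = 3 each). Its promoter averaged 15.96 normalized reads.

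Among the inhibitors of clotting, Serpinc1 encodes antithrombin, which inactivates thrombin and factor Xa. Of its 6 regions, 4 lay in its own introns. The strongest, in intron 1 (chr1:160986596-160987720), had 93.4, 110.6 and 75.0 normalized reads in the AMPK-CA livers and 128.1, 101.1 and 88.1 in the WT livers. The groups overlapped, with a log2 difference of -0.18 ± 0.26 (SE). The promoter of Serpinc1, with its motif ending at the start-site base, averaged 37.8 normalized reads (55.6 per kb) against 99.4 (88.3 per kb) in the intron. Serpind1, the gene of heparin cofactor II, had its strongest region in an intron of the neighbouring Pi4ka. It averaged 40.4 ± 15.0 normalized reads in AMPK-CA and 34.4 ± 6.14 in WT there (SD, n = 3 each). Serping1, the gene of the C1 inhibitor that restrains kallikrein and factor XIIa, had its strongest region between genes, 12567 bp from the start site. It averaged 38.0 ± 12.5 in AMPK-CA and 37.6 ± 14.6 in WT there.

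The smallest p of all member regions belonged to A2m, which encodes alpha-2-macroglobulin, a protease inhibitor of broad range. Its only region is intergenic, at -13265 bp (chr6:121622633-121623183), and its mean level of 23.4 normalized reads lies near the median of the members. It had 33.8, 51.4 and 22.2 normalized reads in the AMPK-CA livers and 11.3, 16.5 and 5.39 in the WT livers, from 42, 53 and 16 reads and 17, 22 and 3 reads. Every AMPK-CA value exceeded every WT value, and the within-batch log2 differences were 1.44, 1.54 and 1.74. The fitted log2 difference was 1.57 ± 0.46 (SE). Limma gave an unadjusted p of 0.00247 and an adjusted p of 1.00 without the block, and 5.77e-05 and 0.0764 with it. The region is therefore not called. Over all fits run, the smallest adjusted p was 0.0621, without WT replicate 1. At a 10 times larger pseudocount the log2 difference was 0.87.

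Other regions reached an unadjusted p under 0.05 with the block and were higher in AMPK-CA in all 3 batches. With A2m they numbered 5 of 118 (background 3.33%), and no member region was lower by the same measure (background 2.79%). Cpb2 encodes the carboxypeptidase that slows plasmin, and its strongest region, at -9036 bp (chr14:75233008-75233494), had 50.7, 52.4 and 38.9 normalized reads in AMPK-CA and 20.7, 44.9 and 27.0 in WT. The groups overlapped, since AMPK-CA of batch 3 was below WT of batch 2. The Klkb1 promoter region at -766 bp (chr8:45295345-45295856) had 17.7, 22.3 and 30.6 normalized reads in AMPK-CA and 10.7, 18.7 and 7.19 in WT. Here too the groups overlapped.

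The remaining pair were among the weakest regions of the list, with under 20 reads in every library. An intergenic F11 region at -5393 bp (chr8:45267250-45267597) had 9.66, 12.6 and 15.3 normalized reads in AMPK-CA and 2.67, 6.74 and 5.39 in WT. A Serpinc1 region at -34339 bp, in an intron of Rc3h1 (chr1:160944076-160944458), had 15.3, 11.6 and 9.72 in AMPK-CA and 4.67, 5.24 and 3.59 in WT. At both regions every AMPK-CA value exceeded every WT value. The blocked limma p-values were 0.0373 for Cpb2, 0.0262 for the Klkb1 promoter, 0.0486 for F11 and 0.0491 for Serpinc1 before adjustment, and 0.631 or more after it. At a 10 times larger pseudocount the log2 differences at the Klkb1, F11 and Serpinc1 regions were 0.47, 0.41 and 0.42, against 0.91, 1.12 and 1.14 as fitted.

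**Figure D3:**
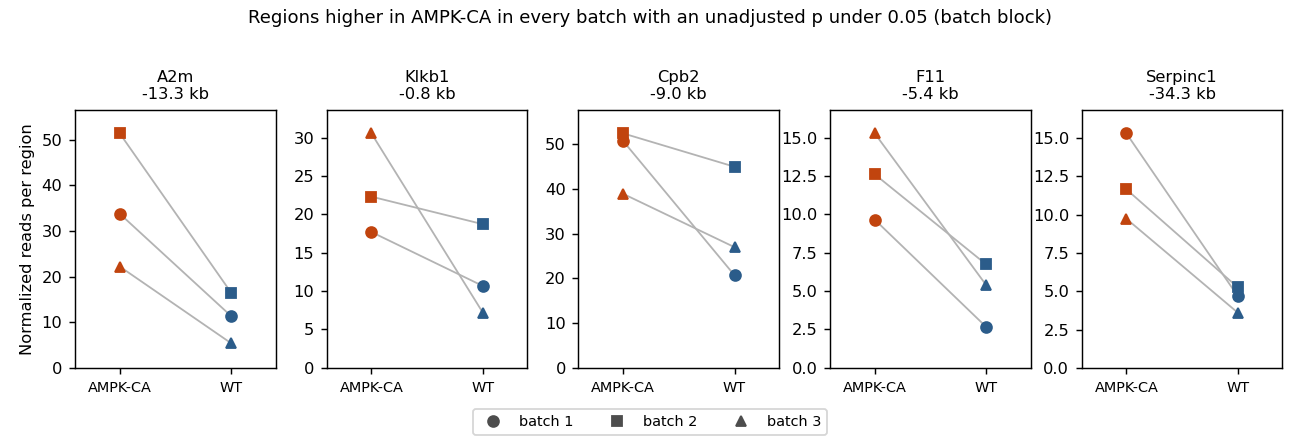
Normalized HNF4a reads per region (linear axes from 0, scaled per panel) at the 5 member regions that were higher in AMPK-CA in all 3 batches with an unadjusted p under 0.05 in the limma fit with the batch block, with lines joining libraries of 1 batch. At A2m, F11 and Serpinc1 the genotypes do not overlap, and none of the 5 passes the adjusted threshold.

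Of the fibrinolysis genes, Plg encodes plasminogen. Its strongest region, in intron 3 (chr17:12387755-12388750), had 69.2, 70.8 and 80.6 normalized reads in the AMPK-CA livers and 52.0, 81.6 and 32.4 in the WT livers. WT held both the lowest and the highest value, and the log2 difference was 0.49 ± 0.32 (SE, limma unadjusted p of 0.144). It was 0.17 without WT replicate 3 and 0.81 without WT replicate 2. Another intron 3 region, 7089 bp from the start site, averaged 57.4 normalized reads, against 38.5 at the Plg promoter. Vtn encodes vitronectin, which stabilizes the plasminogen activator inhibitor PAI-1. Its region in intron 6 (chr11:78500709-78501447) had the highest level per kb among the strongest regions of the list, 139.8 normalized reads. By library it had 85.3, 106.7 and 84.7 normalized reads in AMPK-CA and 109.4, 129.5 and 104.3 in WT. AMPK-CA was lower within each batch with overlap across batches, by a log2 difference of -0.31 ± 0.25 (SE). The Vtn promoter regions averaged 14.5 and 12.4 normalized reads, and the weaker is annotated to the start of Sarm1.

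Serpinf2 encodes the plasmin inhibitor alpha-2-antiplasmin. By level it was bound most in an intron of the neighbouring Wdr81. The means there were 78.4 ± 2.93 normalized reads in AMPK-CA and 79.7 ± 10.7 in WT (SD, n = 3 each). Hrg, the gene of histidine-rich glycoprotein, which binds plasminogen, averaged 73.8 ± 19.1 in AMPK-CA and 70.1 ± 29.4 in WT at its first exon. Over the 25 regions of this group, 11 were higher and 14 lower in AMPK-CA, and none was called.

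Hrg belongs to a cluster with Ahsg, Fetub, Kng2 and Kng1 on chromosome 16 that carried 22 regions. Ahsg encodes fetuin-A, an abundant plasma protein of the liver, and had the third of the strongest member promoters (chr16:22891140-22892262). The values there were 69.2, 105.8 and 82.0 normalized reads in AMPK-CA and 74.0, 94.4 and 66.5 in WT. The groups overlapped, with batch 2 highest in both genotypes. Fetub, the gene of fetuin-B, averaged 42.5 ± 2.11 normalized reads in AMPK-CA and 43.3 ± 19.0 in WT (SD, n = 3 each) at its first exon. Thpo, the gene of thrombopoietin, had the weakest of the strongest regions, between genes at -25328 bp. It averaged 13.4 ± 5.63 in AMPK-CA and 14.3 ± 5.68 in WT there.

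Promoter and distal regions of the list were then compared by genotype within batch. The median log2 difference (AMPK-CA minus WT) of the 22 member promoters was -0.07, with 9 higher and 13 lower, while that of all promoters was -0.23. In batch 1 the member promoters had a median of 0.02 and all promoters -0.60. In batch 2 the medians were -0.07 for members and -0.06 for all promoters, and in batch 3 they were -0.11 and -0.09. The gap between members and all promoters was thus large in batch 1 only, the batch of the WT library with the high promoter share. Without WT replicate 1 the fitted medians were -0.13 for members and 0.00 for all promoters.

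The same library was the lowest of the 6 at 8 of 22 member promoters and at 397 of 5235 promoters of the table. Distal member regions had a median log2 difference of -0.05, and all distal regions had 0.05. In batches 1, 2 and 3 the medians were 0.03, -0.20 and 0.01 for members and 0.08, -0.01 and 0.01 for all distal regions. In batch 2, 35 of the 96 member regions were higher in AMPK-CA, against 49.2% of all distal regions. The strongest regions per gene had a median of -0.05, with 13 higher and 19 lower, as did the strongest regions of all genes (-0.05). Of the reads in member regions, promoters held 24.97%, 25.9% and 24.6% in AMPK-CA and 26.8%, 24.8% and 25.4% in WT. Over all regions they held 14.2%, 11.7% and 12.7% in AMPK-CA and 19.4%, 12.1% and 13.4% in WT. The member share of WT replicate 1 was therefore close to the others, although its share over all regions was not.

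**Figure D4:**
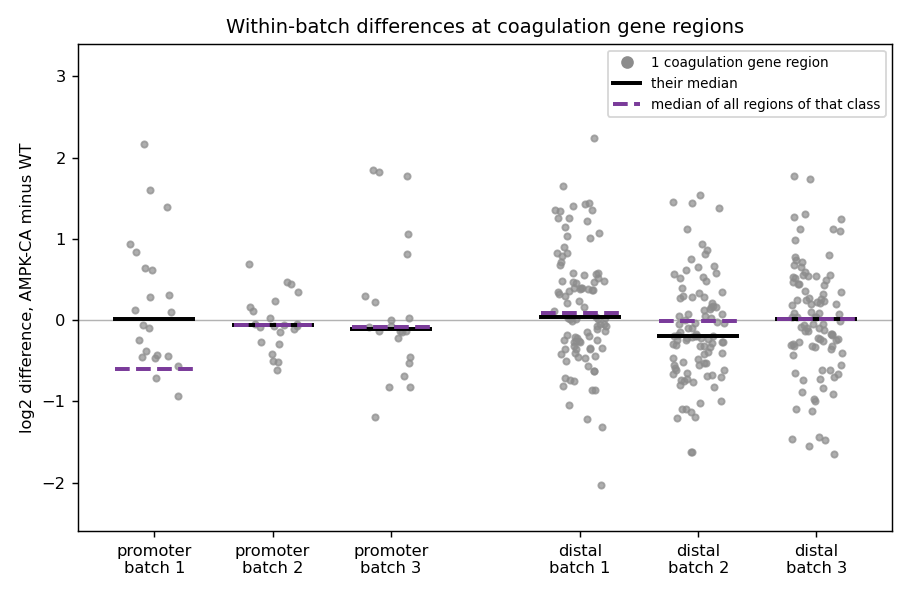
Log2 difference of normalized reads, AMPK-CA minus WT, for each of 22 promoter and 96 distal member regions within each of 3 batches, with the members' median as a solid line and the median of all regions of that class as a dashed line. The lines part most for promoters in batch 1 (0.02 for members, -0.60 for all promoters).

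Other genes of the same pathways were read out from a separate list of 36, of which 24 had a region, 76 regions in all. None was called, with or without the block, while limma gave 7 of 76 an unadjusted p under 0.05 without the block (background 2.46%) and 9 with it (background 7.27%). Their strongest regions were higher in AMPK-CA at 16 of 24 genes (44.7% over all genes), with a median log2 difference of 0.12. Within batches 1, 2 and 3 they were higher at 11, 14 and 13 of the 24. Without WT replicate 1 they were higher at 13, with a median of 0.04. Serpina10, whose protein inhibits factor Xa with protein Z as cofactor, had a higher level than any member. Its strongest region lay in an intron, 21804 bp from the assigned start site. It had 317.9, 248.4 and 200.03 normalized reads in AMPK-CA and 396.9, 149.0 and 125.8 in WT, and WT of batch 1 was highest. Procr, the gene of the endothelial protein C receptor, had 15.3, 18.4 and 13.9 in AMPK-CA and 2.67, 5.99 and 10.8 in WT. No value of WT reached the lowest of AMPK-CA there, as at 3.61% of all genes' strongest regions, and the unadjusted limma p was 0.0413. The Procr region was weak, with a mean of 11.2 normalized reads. Its log2 differences in batches 1, 2 and 3 were 1.94, 1.38 and 0.32.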

How the data were processed

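HNF4a ChIP-seq of 3 AMPK-CA and 3 WT livers was analysed from the deposited signal, a normalized read number per region that the authors made, per the file headers, with regions in mm10 coordinates. Aligner BWA, peak callers MACS2 and SICER, and HOMER appear among the tools in the submitters' processing notes, without roles or versions; the sources used here do not say how regions were chosen. Dividing each library by its smallest non-zero value gave whole reads for 100% of regions (tolerance 1e-09). The deposited values are scaled per library, so a change shared by most regions may have been removed.

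The main test was limma 3.58.1 in R 4.3.3 (trend, robust empirical Bayes) of log2(value + 1.80), where 1.80 is 0.1 times the median of all non-zero values, with Benjamini-Hochberg adjustment over all 39704 regions and a threshold of 0.05. Fold changes understate weak regions. Alternatives were the labelled batch as a replicate block, pseudocounts, a filter, total scaling, each library or batch left out, no trend, and edgeR 4.0.16 and DESeq2 1.42.0 on the recovered reads. The batch label pairs the libraries; deviations of same-batch libraries correlated with r of 0.53, 0.49 and 0.05. The labels name libraries by separate animal codes. No libraries were duplicates (chi-square per degree of freedom 1.58 or more). The fits were tested on simulated data.

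Members and lists were chosen with earlier results of these data known. Values per library are given for the strongest region (highest mean over both groups) of each role group and of 12 set genes, the 3 strongest promoter and distal regions, and regions with 1 direction in all batches and an unadjusted p under 0.05 in the limma fit without or with the block (1 and 5 regions). The values given for F12, F13b and the other pathway genes were chosen after they were seen. Promoter sequences are from RefSeq. The authors' own ratios and p-values were not used.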

Additional observations from a re-analysis of the deposited data

How the results depend on the processing

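No member region was called under any of the alternatives run. Over the whole table, 0 regions were called in the fit reported, 23 with the replicate block, 24 with edgeR and 1 with DESeq2 under the same block, 12, 2 and 7 with the block and without batch 1, 2 or 3, and 0 to 16 with 1 library left out, the highest without WT replicate 1. The median log2 difference of member promoters ran from -0.13 to 0.098 with 1 library left out and was 0.017 with the block without batch 3. For distal regions it ran from -0.092 to 0.14, and was 0.095 with the block without batch 2. For the strongest region per gene it was -0.036 with the larger pseudocount, 0.0049 with total scaling, -0.016 and -0.0047 with the block without batch 1 or 3, and -0.16 to 0.10 with 1 library left out. With total scaling the distal median was 0.0056. The sign of these medians changed with single libraries left out, and with the scaling for the distal and strongest regions; the cause was not tested.

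Of 292 values for 21 named regions, 275 kept their direction and 14 regions never turned. Those that turned were all within 1 SE of 0. With total scaling F7 was at 0.0022 and Ggcx at 0.0075. With the paired fit without batch 1, F7 was at 0.15 and Ggcx at 0.054, and without batch 3 Fga was at 0.31 and Fgb at -0.019. With 1 library left out, the ranges were -0.27 to 0.11 for F7, -0.040 to 0.26 for Ahsg, -0.51 to 0.22 for Fga, -0.37 to 0.046 for Fgg, -0.26 to 0.088 for Ggcx and -0.069 to 0.41 for the Klkb1 intron. Ranges on 1 side of 0 that were wide with 1 library left out were 0.17 to 0.81 for Plg, 0.34 to 1.05 for F9, 0.087 to 0.58 for Kng1, 0.050 to 0.60 for Fgb, -0.30 to -0.0042 for Proz and -0.31 to -0.038 for the strongest Serpinc1 region. The filter on low values left 95 of 118 member regions. WT replicate 3 had the fewest reads, each worth 1.80 normalized reads, which limits weak regions most.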
